A study of Homo sapiens with 10 samples.

Results

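The response of the SKM1 cell line to OR21 was taken as the difference between 2 of the 10 arrays of the series, the array of cells given OR21 and the array of control cells. SKM1 is a human line that the labels describe as a myelodysplastic syndrome line, and it was grown in RPMI medium with foetal bovine serum. OR21, written OR2100 in the design text and known as a hypomethylating agent, was given at 100 nM for 96 h. The control array has the same 96 h label, and no vehicle is named. All 17687 genes to which the platform annotation gave a symbol were described, of 17687 named genes in the whole series. A further 6 arrays served for comparison, from MDSL (also labelled a myelodysplastic line, 100 nM), HL60 and K562 (500 nM each), again with 1 OR21 and 1 control array per line. The other 2 arrays, of resistant HL60 cells, were not used here, and no label says whether treated and control cells came from separate cultures. With 1 array per condition the SKM1 differences have no replicate check and carry no p-value. In bulk RNA of this kind, fewer cells of a kind and less RNA per cell cannot be told apart.

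Hypomethylating agents are cytosine analogues that are built into newly made DNA and trap the maintenance DNA methyltransferase, so that methyl groups are lost as cells divide. Genes whose promoters are kept silent by methylation, among them germ cell genes and the cancer-testis genes of the X chromosome, are classic targets of such drugs. In myeloid cells these agents are also known for an interferon-like response, sensed through double-stranded RNA, and for changes in maturation. DNA methylation was not measured here.

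Values are log2 intensities throughout. The median of 23 background rows was 5.42 on the SKM1 OR21 array and 5.41 on the SKM1 control array, and a gene at or below it is called at background. The gene medians were 7.05 after OR21 and 6.90 in control, and the hybridisation spikes averaged 10.85 and 10.92. Between both arrays the background rows had an SD of 0.12 (n = 23), the ERCC rows 0.14 (n = 63) and the 2197 rows named as positive controls 0.50. The 612 rows named as negative controls had an SD of 1.15, with 11.1% higher and 17.5% lower by 2-fold or more. All named genes had an SD of 0.77, with 7.10% higher and 4.47% lower. Negative controls thus passed the 2-fold cut more often than the genes did, in both directions. Of the positive control rows 1.14% were higher and 4.1% lower, and of the background and ERCC rows 0%. A 2-fold difference alone therefore does not set a gene apart from the negative controls. Outside SKM1, the background median was 4.98 on the MDSL control array, and the HL60 OR21 array stood apart in its hybridisation spikes (11.71).

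Both SKM1 arrays carried the myeloid pattern that the label implies. Lysozyme (LYZ) was at 17.37 after OR21 and 17.03 in control, and myeloperoxidase (MPO) at 15.99 and 17.08. The myeloid transcription factors SPI1 (12.30 and 11.38) and CEBPA (11.09 and 10.97) and the receptor CSF1R (11.02 and 11.35) were also bright, whereas the monocyte marker CD14 lay only just above background, at 6.44 and 5.92. CD33 was not analysed here. Markers of other cell types were at background only in part: 3 of 9 B lymphocyte, 9 of 15 T and NK lymphocyte, 6 of 12 epithelial and 8 of 13 fibroblast and endothelial markers were at background after OR21, against 5, 10, 6 and 9 in control. The brightest of the others included the adhesion molecules EPCAM (12.06 after OR21, 12.46 in control) and NCAM1 (10.57 and 12.26), PECAM1 (11.41 and 9.15) and the cytotoxic granule gene NKG7 (10.82 and 9.97).

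On the deposited scale, SKM1 cells after OR21 had more genes that stood well above control than well below it. At least 2-fold higher were 1255 genes (7.10% of all genes) and at least 2-fold lower were 791 (4.47%), together 2046 (11.6%). The asymmetry grew with size: 347 genes were at least 4-fold higher against 43 lower, and 73 were at least 16-fold higher against 1 lower, FLT3. The median difference over all genes was -0.02. The split depends on the scale, because centring the arrays on their medians turned the all-gene median to -0.17 and the counts to 1001 higher and 1210 lower. All 566 values of the 283 named genes under quantile normalization and centring lay within 1.5-fold of the deposited scale.

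**Figure D1:**
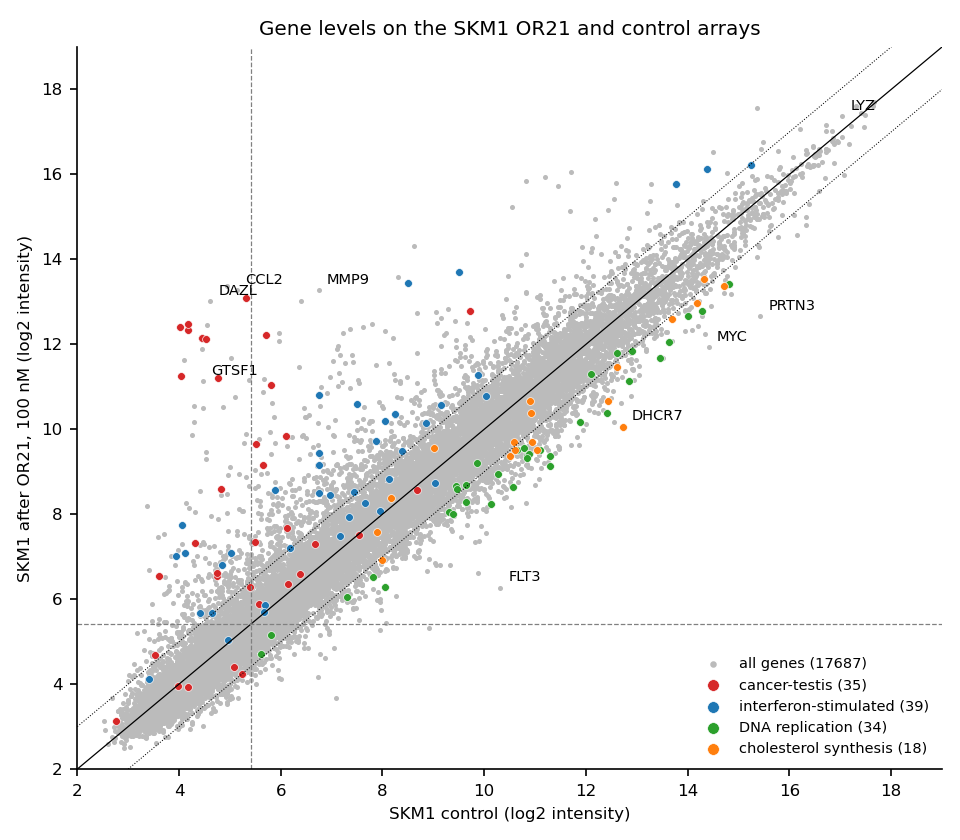
Log2 intensity of all 17687 genes on the SKM1 OR21 array (vertical) against the SKM1 control array (horizontal), with equality as a solid line, 2-fold differences as dotted lines and background medians as dashed lines. Of the 35 cancer-testis genes (red) 21 lie left of the control background line, and the highest reaches 13.10 after OR21, interferon-stimulated genes (blue) lie mostly above equality, and DNA replication (green) and most cholesterol genes (orange) lie under it.

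A group of genes at background in control SKM1 reached or passed the array's gene median after OR21. There were 77 such genes, 0.435% of all genes, while 7 were at or above the median in control and at background after OR21. The first count was 34 in MDSL, 170 in HL60 and 66 in K562, and 3, 22 and 9 of the 77 SKM1 genes were also in those lists. These are 3.9%, 28.6% and 11.7% of the 77, against 0.192%, 0.961% and 0.373% of all genes. The MDSL counts rest on a lower control background median (4.98), with 4593 genes at background there against 5758 in SKM1 control. The 7 genes of the opposite kind were STXBP5L, RNF182, RXFP1, SEMA3A (a secreted axon guidance protein), VIT, DPYSL3 and TBC1D30. For a gene at background in control, the difference is limited by background and is given below as a minimum fold against the background median.

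Germ cell genes and cancer-testis genes made up most of the largest differences. Of the 20 largest differences upward, 17 were in genes at background in control and 15 were on the X chromosome. These 15 were all CT45A, GAGE or SSX genes, close copies that may share signal, so they are not 15 separate observations. DAZL, a protein that binds RNA in developing germ cells, was at 13.03 after OR21 and 4.62 in control, at least 196-fold higher. MAEL, a protein of the piRNA pathway that silences transposons in germ cells, was at 10.52 and 4.85, at least 34.6-fold higher. The germ cell nuclear protein GCNA (11.18 after OR21, 5.67 in control) and the meiotic chromosome protein HORMAD1 (10.88 and 5.64) started just above background. TDRD12, another piRNA pathway gene, was at 8.14 and 4.19, at least 6.60-fold higher. Of 36 germ cell and meiosis genes, 16 were higher by 2-fold or more and 0 lower, with a median of 0.48 against -0.02 over all genes, and 17 were still at background after OR21. The germ cell helicase DDX4, at 4.90 after OR21 and 3.78 in control, counts among the 16 although both values are at background.

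GTSF1, a zinc finger protein that works with PIWI proteins in the same pathway, was at background in untreated SKM1 but bright in the other untreated lines. It was at 11.13 after OR21 and 4.46 in control, at least 52.6-fold higher in SKM1. Without treatment it was already at 12.91 in MDSL, 14.08 in HL60 and 15.21 in K562, and its differences there were -0.27, -0.36 and 0.14. After OR21 the SKM1 level was still below the untreated level of the others.

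Upstream sequence is shown for 3 of these germline genes, to set promoters of different CpG content side by side, with the histidine decarboxylase gene HDC (12.26 after OR21, 5.96 in control), which makes histamine in mast cells and basophils. The 250 bases before each gene's start are from RefSeq, build GRCh38.p14, read 5′ to 3′ on the gene's strand, with CG dinucleotides in capitals. DAZL is at chr3:16605424-16605673 (minus strand), GTSF1 at chr12:54473603-54473852 (minus strand), MAEL at chr1:166975332-166975581 (plus strand) and HDC at chr15:50265727-50265976 (minus strand).
DAZL: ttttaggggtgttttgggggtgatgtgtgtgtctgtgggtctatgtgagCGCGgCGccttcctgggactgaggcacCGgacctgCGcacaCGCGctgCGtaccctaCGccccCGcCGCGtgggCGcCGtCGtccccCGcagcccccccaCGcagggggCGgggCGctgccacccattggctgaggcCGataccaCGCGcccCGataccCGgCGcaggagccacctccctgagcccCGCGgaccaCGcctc
GTSF1: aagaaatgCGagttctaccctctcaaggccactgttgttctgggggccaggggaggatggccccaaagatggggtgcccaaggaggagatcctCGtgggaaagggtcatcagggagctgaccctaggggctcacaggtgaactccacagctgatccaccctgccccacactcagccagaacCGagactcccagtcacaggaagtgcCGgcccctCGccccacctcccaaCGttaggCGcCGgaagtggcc
MAEL: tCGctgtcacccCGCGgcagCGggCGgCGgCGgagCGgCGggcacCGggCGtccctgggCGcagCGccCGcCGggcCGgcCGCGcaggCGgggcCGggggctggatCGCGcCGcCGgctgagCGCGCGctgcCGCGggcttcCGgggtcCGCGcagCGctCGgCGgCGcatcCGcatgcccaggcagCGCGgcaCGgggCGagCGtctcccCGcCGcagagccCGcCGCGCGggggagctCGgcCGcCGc
HDC: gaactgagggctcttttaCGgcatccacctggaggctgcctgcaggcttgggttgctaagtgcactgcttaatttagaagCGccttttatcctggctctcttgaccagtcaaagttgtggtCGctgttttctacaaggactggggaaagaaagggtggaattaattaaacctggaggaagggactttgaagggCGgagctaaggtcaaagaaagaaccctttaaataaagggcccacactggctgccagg
The printed stretch holds 28 CG in DAZL, 8 in GTSF1, 51 in MAEL and 4 in HDC, so genes with dense and with sparse CpG were among those that reached high levels. RefSeq promoters of 300 bases, with 50 bases after the start, matched 14250 of the 17687 genes. The median number of CG in them was 12 over the 57 matched genes that left background for the array median, 8 over the 3998 at background on both arrays, 26 over the 7031 above the median on both arrays and 22 over all. Among genes at background in control, the share at least 2-fold higher was 4.29% with under 10 CG, 7.49% with 10 to 19 and 5.18% with 20 or more. A count of CG in a promoter says nothing of its methylation in SKM1.

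The cancer-testis genes, which encode antigens normally restricted to the testis, had the highest median of all 52 lists. Of 35 measured, 23 were at least 2-fold higher and 1 lower, with a median of 2.96 in SKM1, against 0.26 in MDSL, 1.03 in HL60 and 0.88 in K562. The members differed by family. All 9 CT45A genes were at background in control and were at 11.89 to 13.10 after OR21, and all 5 GAGE genes were at 10.50 to 13.37 after OR21 and 4.05 to 5.71 in control. Of the SSX genes 8 of 9 were at least 2-fold higher, of PAGE 4 of 6, of CT47A 4 of 4, of MAGE 7 of 29, of XAGE 1 of 4 and of SPANX 0 of 10. Copies within CT45A, GAGE, SSX and CT47A are close to identical, which makes the separate values of these copies uncertain, and CT45A8 and CT45A9 had identical values.

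GAGE12G was at 13.37 after OR21 and 4.94 in control in SKM1, at least 248-fold higher, while its difference was 0.21 in MDSL, 1.61 in HL60 and 1.51 in K562, whose control was already at 11.81. CT45A5 was at 12.40 after OR21 and 4.02 in control, at least 127-fold higher in SKM1, and its difference was 0.70 in MDSL, 5.47 in HL60 and 1.76 in K562 (control 11.78). Among other cancer-testis genes, MAGEA4 was at 11.04 after OR21 and 5.82 in control, MAGEB2 at 9.84 and 6.10, and PRAME, which was well above background without treatment, at 12.80 and 9.72. MAGEA3, at 6.60 and 6.37, and XAGE2, at background on both arrays, had no difference of 2-fold.

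The X chromosome as a whole held more higher genes than the array. Of its 706 genes 93 (13.2%) were at least 2-fold higher and 25 (3.54%) left background for the array median. The 8 cancer-testis families gave 38 of the 93. Among the other 633 genes of the X chromosome 55 (8.69%) were at least 2-fold higher, near the 7.10% of all genes.

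**Figure D2:**
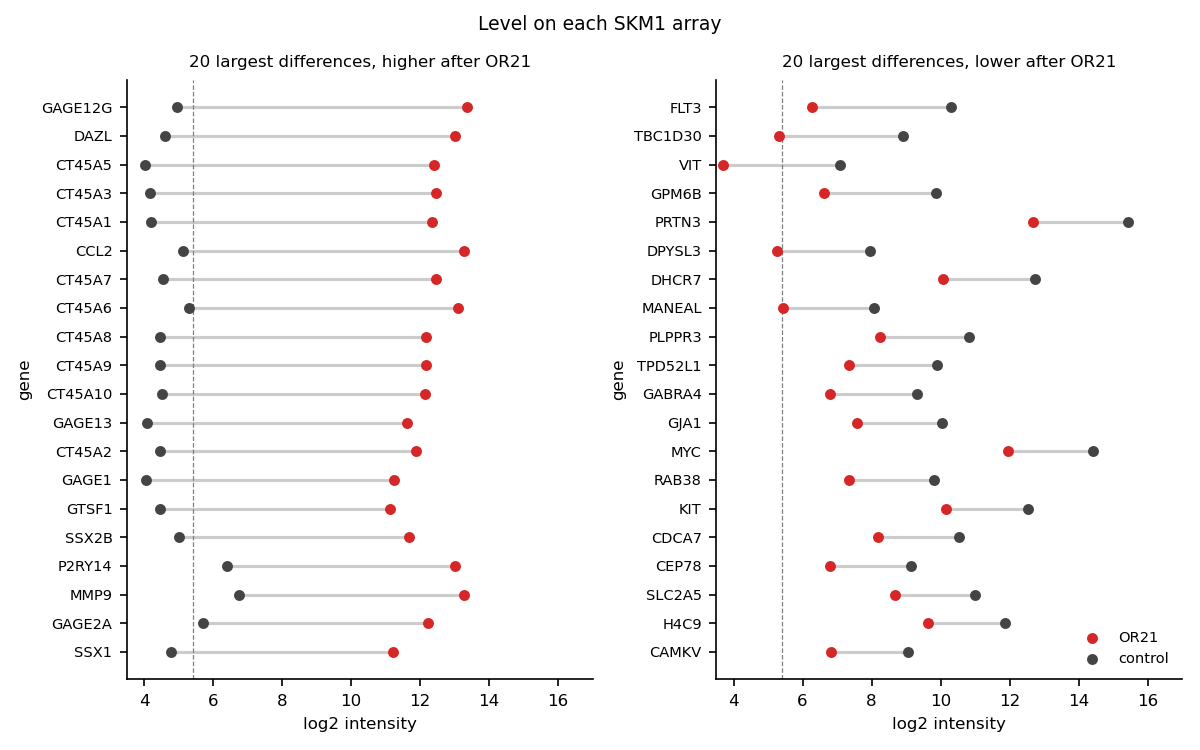
Log2 intensity on the SKM1 OR21 array (red) and control array (dark grey) of the 20 largest differences in each direction, 1 array per condition, with the control background median dashed. On the left, 17 of 20 controls are at background and every gene is above 11 after OR21. On the right, most genes stay above background after OR21, and 3 of the 20 are at it.

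Interferon-stimulated genes, the antiviral effectors switched on by interferon receptors, were higher as a group. Of 39 measured, 27 were at least 2-fold higher and 0 lower, with a median of 1.41 (all genes -0.02). MX1, a GTPase that blocks viral replication, was at 13.45 after OR21 and 8.50 in control, 30.9-fold higher, and its difference of 4.95 stood against 0.78, 2.47 and 0.77 in MDSL, HL60 and K562. IFI6, an interferon-induced mitochondrial and endoplasmic reticulum protein, was at 13.70 and 9.50, and IRF9, a transcription factor of the interferon response, at 10.80 and 6.75. IFIT1, which binds foreign RNA ends, left background, at 7.74 after OR21 and 4.06 in control, at least 5.03-fold higher. The membrane restriction factor IFITM3, already bright, was at 16.13 and 14.38. The guanylate-binding protein gene GBP1, at 5.69 and 5.68, was among the 12 members within 2-fold.

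The interferon-stimulated response element (ISRE) is the DNA motif that IRF9 complexes bind, and it is shown in IFI6 and IFIT1 because these 2 genes carry several copies. The letters searched were GAAA, any 2 bases and GAAA again, on both strands. Matches are in capitals and may overlap each other or another motif. The 250 upstream bases of IFI6 are at chr1:27672193-27672442 (minus strand) and those of IFIT1 at chr10:89392373-89392622 (plus strand) of GRCh38.p14, from RefSeq.
IFI6: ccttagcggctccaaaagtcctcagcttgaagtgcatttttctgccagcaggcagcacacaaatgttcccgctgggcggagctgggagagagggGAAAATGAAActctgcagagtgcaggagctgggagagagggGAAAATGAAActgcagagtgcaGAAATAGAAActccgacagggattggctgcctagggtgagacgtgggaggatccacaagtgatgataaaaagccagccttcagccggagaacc
IFIT1: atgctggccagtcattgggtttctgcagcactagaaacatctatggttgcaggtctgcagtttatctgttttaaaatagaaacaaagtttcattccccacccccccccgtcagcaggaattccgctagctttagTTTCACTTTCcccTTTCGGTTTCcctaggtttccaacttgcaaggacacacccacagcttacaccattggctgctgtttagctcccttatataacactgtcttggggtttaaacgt
There are 3 matches in IFI6 and 2 in IFIT1. In 300-base promoters, 21 of 30 matched interferon-stimulated genes held the letters, against 3.11% of all promoters, and 17 of the 21 were at least 2-fold higher. Over all 443 promoters with the letters, 10.4% of genes were at least 2-fold higher, against 6.74% without, and their median was -0.05. These 443 include the 21 of the list, which gave 17 of the 46 higher genes, so the 10.4% is not separate from the list. IRF9 and PARP9, at differences of 4.05 and 3.09, had no match in this window.

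Sensors upstream of interferon differed less uniformly. IFI16, a nuclear DNA sensor, was at 12.41 after OR21 and 7.61 in control, and the endosomal RNA receptor TLR8 at 8.86 and 6.65. RIGI, a cytosolic RNA helicase, was at 9.20 and 7.93, and its relative IFIH1 at 9.22 and 8.52, within 2-fold. The list had 4 of 18 members at least 2-fold higher, 0 lower and a median of 0.73.

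Of 12 class II genes, 9 were higher by 2-fold or more and 0 lower, with a median of 1.75, and of 14 class I genes 1 was higher and 0 lower, with a median of 0.32, a share near the 7.10% of all genes. CIITA, the master regulator of class II genes, was at 7.73 after OR21 and 5.91 in control. HLA-DQA1 was at 9.58 and 6.64, the invariant chain CD74 at 14.17 and 12.10, and HLA-DRA at 14.76 and 13.36. Among class I genes HLA-E was at 13.33 and 12.06, and B2M, the light chain, at 17.62 and 17.30. The class II median was -1.31 in MDSL, 0.38 in HL60 and 0.15 in K562, and CIITA differed by -2.77 in MDSL, which had the same dose as SKM1. No class II gene passed the test of SKM1 against the other lines described below. HLA genes are close in sequence and vary between people, so their probe sets may take signal from each other.

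Inflammatory mediators were higher in SKM1 after OR21. CCL2, which draws monocytes, was at 13.27 after OR21 and 5.14 in control, at least 232-fold higher. The neutrophil chemokine CXCL8 was at 13.58 and 8.30, CCL20 at 11.88 and 7.10, and CCL3 at 13.62 and 10.47. IL1B, the interleukin-1 beta gene, was at 15.23 and 10.54, 25.8-fold higher. Of 23 chemokine and receptor genes, 10 were higher by 2-fold or more and 0 lower (median 0.68), of 17 NF-kB and feedback genes 10 and 0 (median 1.13), and of 20 AP-1 and immediate early genes 10 and 0 (median 0.87). Over members at or above the median of either array, the chemokine median was 2.55 and the AP-1 median 1.60, but this filter also keeps members for being high after OR21 alone. The feedback inhibitors TNFAIP3 (10.92 and 8.82) and NFKBIA (10.98 and 9.70) were higher with the mediators. EGR1, an immediate early transcription factor, was at 8.95 and 5.18, at least 11.6-fold higher. MMP9, a matrix protease of phagocytes, was at 13.28 and 6.75, 92.8-fold higher, with differences of 0.00 in MDSL, 9.31 in HL60 and -0.58 in K562.

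Many genes of mature phagocytes were higher, with the surface receptor ITGAM and the oxidase CYBB among the largest. ITGAM, the CD11b integrin chain, was at 11.58 after OR21 and 7.43 in control. CYBB, the catalytic chain of the phagocyte NADPH oxidase, was at 15.85 and 10.82, 32.7-fold higher, and its cytosolic partner NCF1 at 16.06 and 11.70. Of 7 oxidase genes 4 were at least 2-fold higher, of 11 S100 genes 8 and of 40 phagocyte receptors 18. So were 12 of 23 integrin and adhesion genes, 8 of 20 lysosomal genes and 15 of 26 cytokine receptors, against 7.10% of all genes. In these 6 lists 0 were at least 2-fold lower, against 4.47% of all genes. Within 2-fold were 22 phagocyte receptors and 12 lysosomal genes. The medians of the 6 lists were 1.79, 1.27, 0.83, 1.09, 0.69 and 1.30 in that order.

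Within these lists, the calcium-binding alarmins S100A8 and S100A9 were at 15.73 and 14.13 after OR21, against 11.46 and 10.83 in control. The adaptor TYROBP was at 15.94 and 11.19, the formyl peptide receptor FPR1 at 10.30 and 5.87, and the complement receptor CR1 at 11.46 and 6.35. CD14 differed by 0.52 in SKM1 against 6.97 in HL60, and CSF3R by 0.52. IL1RL1, the interleukin-33 receptor of mast cells and basophils, left background, at 9.48 after OR21 and 4.54 in control, at least 16.7-fold higher. P2RY14, a receptor for UDP-sugars, was at 13.01 and 6.39.

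Primary granule genes, which belong to the promyelocyte stage, did not share a direction. Of 14 measured, 4 were at least 2-fold higher and 3 lower (all genes 7.10% and 4.47%), with a median of 0.21. PRTN3, proteinase 3, was at 12.67 after OR21 and 15.43 in control, 6.74-fold lower, and MPO was 2.12-fold lower, while CST7 was at 11.79 and 8.67. MPO differed by 4.49 in MDSL, from a control level of 8.62 there against 17.08 in SKM1. The defensins DEFA1, at 6.83 after OR21 and 5.37 in control (at least 2.67-fold), and DEFA3, at 6.84 and 5.58, are near copies that may share signal.

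Of 32 lineage transcription factors 8 were at least 2-fold higher, 0 lower and 24 within 2-fold (median 0.46), and of 17 megakaryocyte and mast cell genes 7 were higher, 1 lower and 9 within 2-fold (median 0.40). GATA1, the erythroid and megakaryocytic master factor, was at 10.29 after OR21 and 6.49 in control, and GATA2 at 10.52 and 7.64. GFI1B, a partner of GATA1, was at 8.66 and 5.38, at least 9.47-fold higher. The platelet integrin chain ITGA2B was at 10.85 and 6.91, and FCER1A, the IgE receptor chain, at 7.02 and 3.84, at least 3.05-fold higher. Of 22 erythroid genes, 3 were higher by 2-fold or more and 0 lower (all genes 7.10% and 4.47%). At background after OR21, as in control, were 11. The erythroid median was 0.08 and turned to -0.06 under centring. It was 0.92 over the 6 members at or above the median of either array, but this filter keeps GATA1 and GFI1B for being high after OR21 alone.

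FLT3 and KIT, receptors of early progenitors, were lower. FLT3, a receptor tyrosine kinase, was at 6.27 after OR21 and 10.31 in control, 16.4-fold lower and the lowest difference of all genes. It also differed by -3.51 in MDSL. KIT, the stem cell factor receptor, was at 10.17 and 12.55, 5.20-fold lower in SKM1. KIT was also lower in MDSL, by slightly under 4-fold, and its difference was 0.85 in HL60 and 2.74 in K562. CD34, in contrast, was at 6.82 after OR21 and 4.71 in control, where it was at background, at least 2.65-fold higher. The list of 19 stem and progenitor genes had 2 higher and 3 lower, and its median of 0.01 turned to -0.09 under quantile normalization and -0.13 under centring.

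**Figure D3:**
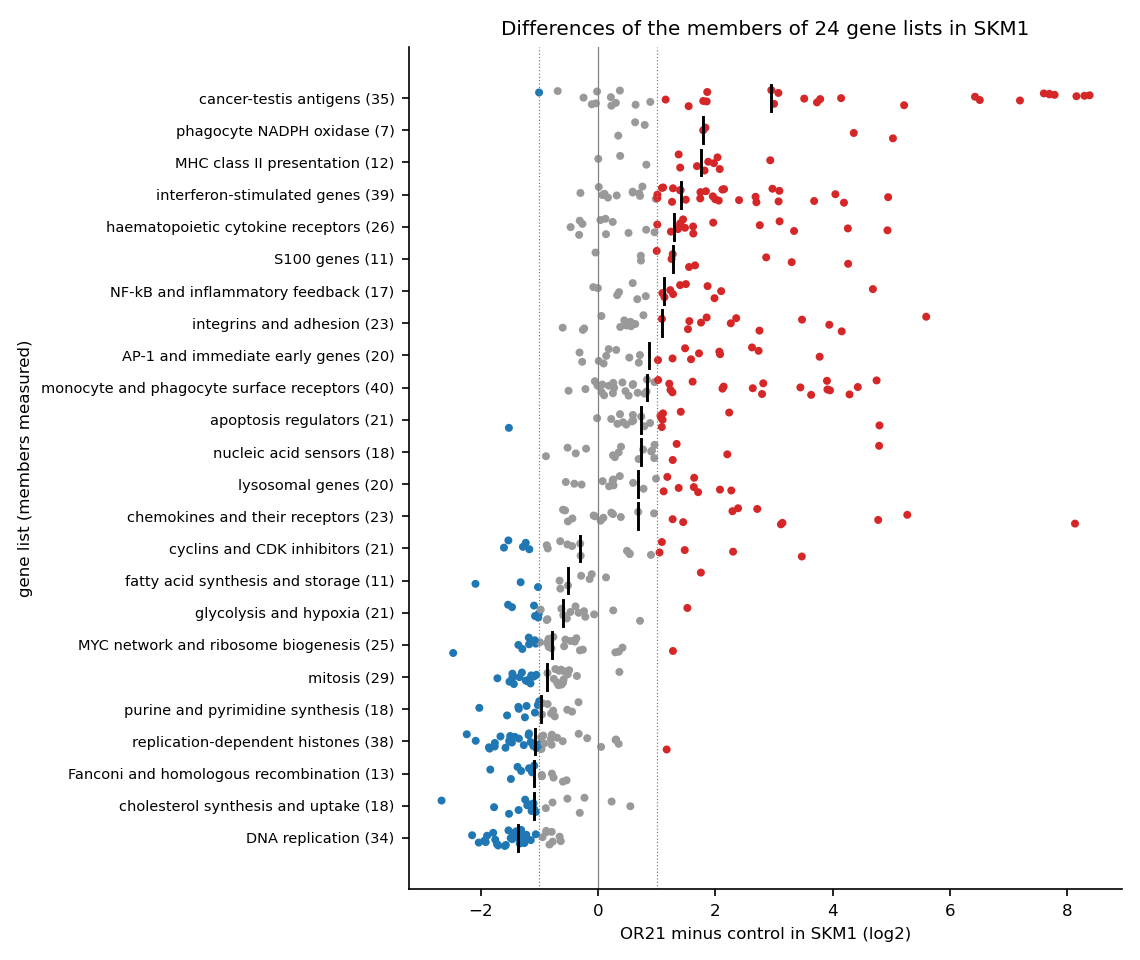
Difference of OR21 minus control in SKM1 (log2) for each member of 24 gene lists, with members at least 2-fold higher in red, at least 2-fold lower in blue, others in grey and the list median as a black bar. Cancer-testis, oxidase, MHC class II and interferon lists lie at the top, with medians of 2.96, 1.79, 1.75 and 1.41, and DNA replication lies at the bottom, with a median of -1.37.

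Genes of the cell cycle were lower, those of DNA replication most uniformly. All 34 replication genes had a negative difference, 26 of them at least 2-fold lower, with a median of -1.37. PRIM1, the primase that starts each DNA strand, was at 9.15 after OR21 and 11.29 in control. GINS2, of the replicative helicase, was at 9.38 and 11.29, the helicase subunit MCM6 at 10.17 and 11.89, the sliding clamp PCNA at 12.79 and 14.28, and the licensing factor CDT1 at 6.30 and 8.05. Of 38 replication-dependent histones 22 were lower and 1 higher (median -1.08), and of 13 Fanconi and homologous recombination genes 7 were lower (median -1.09). Histone genes are close copies and may share signal. Of 29 mitosis genes 14 were at least 2-fold lower and 0 higher (median -0.86), with KIF20A at 8.65 and 10.37 and AURKB at 7.83 and 9.35.

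Cell cycle inhibitors and p53 targets were mixed. CDKN1A, the p21 inhibitor of cyclin-dependent kinases, was at 9.60 after OR21 and 6.12 in control, 11.1-fold higher. CDKN2B, a frequently methylated inhibitor gene in myelodysplasia, was at 7.19 and 6.65, within 2-fold. MDM2, a p53 target that restrains p53, was at 9.51 and 8.39. Of 22 p53 targets 6 were at least 2-fold higher and 2 lower (all genes 7.10% and 4.47%), with a median of 0.25. The survival gene BCL2 was at 9.97 and 11.50, while its relative BCL2A1 was at 10.63 and 5.83.

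Promoter motifs of cell cycle genes are shown in 4 genes of these lists. They were picked for holding the letters upstream and for the lowest SKM1 differences among such members, so they do not represent the lists. In GINS2 and CDT1 the capitals mark the E2F letters TTTCCCGC, and in KIF23 and CCNB2 the CHR letters TTTGAA, the cell cycle homology region found in mitotic genes, on either strand, where matches may overlap other motifs. The 250 upstream bases are from RefSeq, GRCh38.p14, for GINS2 at chr16:85688955-85689204 (minus strand), CDT1 at chr16:88803539-88803788 (plus strand), KIF23 at chr15:69414099-69414348 (plus strand) and CCNB2 at chr15:59104896-59105145 (plus strand).
GINS2: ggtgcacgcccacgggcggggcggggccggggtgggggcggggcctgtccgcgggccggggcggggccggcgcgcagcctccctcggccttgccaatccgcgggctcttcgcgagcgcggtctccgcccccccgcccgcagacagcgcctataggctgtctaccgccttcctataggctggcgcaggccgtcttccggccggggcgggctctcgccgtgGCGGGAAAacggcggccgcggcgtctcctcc
CDT1: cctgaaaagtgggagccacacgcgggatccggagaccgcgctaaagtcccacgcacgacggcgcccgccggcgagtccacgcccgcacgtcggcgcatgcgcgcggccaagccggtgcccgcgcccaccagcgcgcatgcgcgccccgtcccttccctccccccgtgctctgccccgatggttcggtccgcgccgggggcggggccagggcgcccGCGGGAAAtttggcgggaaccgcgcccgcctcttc
KIF23: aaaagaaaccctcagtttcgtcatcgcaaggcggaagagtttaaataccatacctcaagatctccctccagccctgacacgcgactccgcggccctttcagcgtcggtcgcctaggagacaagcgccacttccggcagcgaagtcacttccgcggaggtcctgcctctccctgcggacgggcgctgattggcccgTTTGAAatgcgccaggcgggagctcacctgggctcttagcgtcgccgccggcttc
CCNB2: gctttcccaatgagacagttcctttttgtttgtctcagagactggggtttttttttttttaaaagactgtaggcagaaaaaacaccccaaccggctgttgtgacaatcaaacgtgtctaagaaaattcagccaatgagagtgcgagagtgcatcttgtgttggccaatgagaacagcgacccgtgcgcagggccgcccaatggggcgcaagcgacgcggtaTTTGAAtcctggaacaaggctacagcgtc
The E2F letters were in 9 of 31 replication promoters of 300 bases, against 2.22% of all, and the CHR letters in 16 of 23 mitosis promoters, against 12% of all. Genes with the E2F letters were at least 2-fold lower in 11.4% of cases, against 4.45% of genes without them. With the CHR letters the share was 5.72%, against 4.45% without. The replication list gave 7 of the 36 lower genes with E2F letters, and the mitosis list 8 of the 98 with CHR letters. Neither share is thus separate from the lists. KIF23, a motor of cell division, was at 10.65 after OR21 and 12.12 in control, and CCNB2, a mitotic cyclin, at 10.95 and 12.38.

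The lists of MYC and ribosome biogenesis, nucleotide synthesis and cholesterol synthesis each had a negative median in SKM1. MYC was at 11.94 after OR21 and 14.41 in control, 5.54-fold lower, and of 25 genes of its network and of ribosome biogenesis 7 were at least 2-fold lower, 1 higher and 17 within 2-fold (median -0.79). Of 18 purine and pyrimidine synthesis genes 9 were lower and 0 higher (median -0.98), among them DHODH, the mitochondrial step of pyrimidine synthesis, at 9.23 and 11.25. Of 18 cholesterol genes 11 were lower and 0 higher (median -1.09), against medians of -0.15 in MDSL, -1.34 in HL60 and 0.10 in K562. DHCR7, the last enzyme of cholesterol synthesis, was at 10.06 and 12.73, 6.36-fold lower, HMGCS1 at 9.52 and 11.04, and the fatty acid desaturase SCD at 12.25 and 14.34. PHGDH, which opens serine synthesis, was at 9.98 and 11.95.

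Genes of DNA methylation and of nucleoside analogue uptake and activation had moderate differences or almost none. DNMT1, the maintenance methyltransferase that hypomethylating agents trap, was at 9.89 after OR21 and 11.01 in control, and its guide UHRF1 at 10.83 and 12.16. The de novo methyltransferase DNMT3A was at 8.98 and 6.93 (4.15-fold higher) and the 5-methylcytosine oxidase TET2 at 9.15 and 7.08 (4.20-fold). ZBTB38 had the largest difference of the list, 5.09-fold higher, and DNMT3B differed by 0.24. The median over 16 genes of the methylation machinery was -0.10. It turned to 0.01 over members at or above the median of either array, a filter that keeps ZBTB38 for its OR21 level alone. DCK, the kinase that activates deoxycytidine analogues, differed by -0.18, the transporter SLC29A1 by -0.06 and UCK1 by -0.01. SAMHD1, a dNTP hydrolase, was at 14.08 and 12.83, and CDA, cytidine deaminase, at 7.02 and 5.89. DUT, TYMS and TK1 were 2.85-fold, 2.72-fold and 2.53-fold lower.

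Metallothioneins, the metal-binding stress proteins, stayed within 2-fold of control in SKM1. All 9 differences lay between -0.35 and 0.41 in SKM1, with MT2A at 15.97 after OR21 and 15.56 in control and MT1X at 14.90 and 15.13. MT2A differed by 0.84 in MDSL, 1.57 in HL60 and 4.04 in K562. The SKM1 median of 0.015 turned to -0.02 under quantile normalization and -0.13 under centring. Of the 12 housekeeping genes 2 were at least 2-fold lower, HPRT1 at 9.55 after OR21 and 10.87 in control and PGK1 at 13.10 and 14.11.

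**Figure D4:**
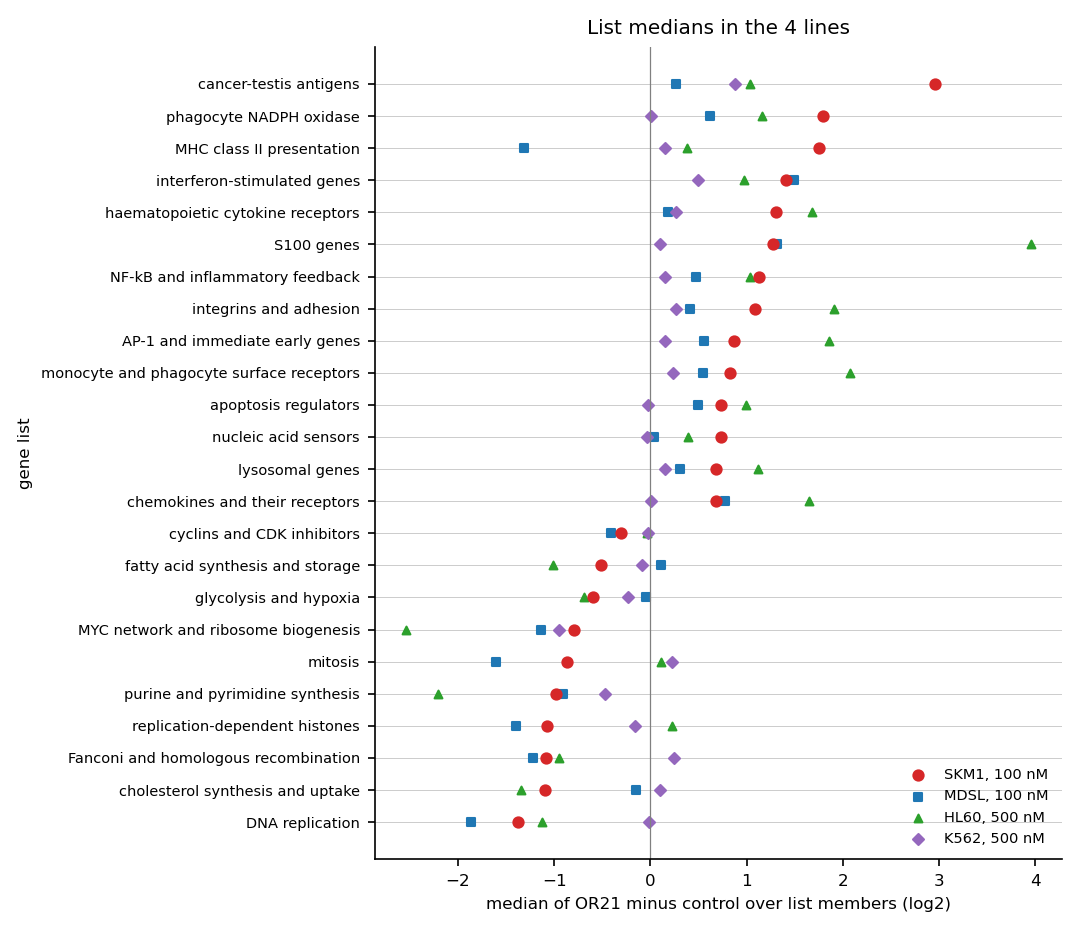
Median of OR21 minus control (log2) over the members of the same 24 lists in SKM1 and MDSL (100 nM) and HL60 and K562 (500 nM). SKM1 (red) lies to the right of the other lines for cancer-testis (2.96), oxidase (1.79) and MHC class II (1.75) genes and between MDSL and HL60 for DNA replication (-1.37).

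The genes at least 2-fold higher in SKM1 overlapped in part with those of the other lines. Of the 1255, 35.3% were also higher in MDSL, 55% in HL60 and 18.8% in K562, against 6.62%, 10.2% and 5.05% of all genes, and they were 37.9%, 38.3% and 26.4% of those lines' lists. Of the 791 lower genes 35.5%, 48% and 13.4% were also lower in MDSL, HL60 and K562, against 4.88%, 11.1% and 3.86% of all genes, and they were 32.5%, 19.4% and 15.5% of those lists. At least 2-fold higher in SKM1 and in none of the other 3 lines were 363 genes, 28.9% of the SKM1 list. Lower in the same sense were 274 genes, 34.6% of the lower list. In all 4 lines 75 genes (5.98%) were higher and 40 (5.06%) lower. These counts rest on a 2-fold cut between single arrays and were not tested. Across genes, which are not independent replicates, the SKM1 differences had a Pearson r of 0.55 with HL60, 0.46 with MDSL and 0.24 with K562. MDSL had the same dose as SKM1, whereas against HL60 and K562 dose and line cannot be told apart.

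Whether the SKM1 response differed from that of the other lines was tested with limma on 8 arrays, taking the spread of the response among MDSL, HL60 and K562 as the error. No gene passed an adjusted p of 0.05 in either direction (0 higher and 0 lower, 0% of genes), and 350 had an unadjusted p under 0.05. The smallest adjusted p was that of GTSF1, 0.256, for a SKM1 response 6.83 log2 above the mean of the others (SE 0.47). The next adjusted p in limma was 0.489, shared by GAGE12G, GAGE10, GAGE1, RBM46, GAGE2A, MAGEA4 and GAGE13, with GAGE12G at 7.32 log2 above (SE 0.70). GTSF1 and GAGE12G were at background in control SKM1, so both estimates rest on values without a measured control level, and their SKM1 differences are at least 5.72 and 7.95. With HL60 left out, 29 genes passed with a larger response in SKM1 than in MDSL and K562, and 1 with a smaller response. The residual spread then came from the gap between MDSL and K562 alone, and why the count rose was not tested. All 9 CT45A genes, all 5 GAGE genes, SSX1, SSX2B and SSX5 were among the 29. Copies within each of these families may share signal, so the 29 are not separate observations. These 29 included GTSF1, GAGE12G and MMP9 (adjusted p = 0.0155 in limma for each), HDC (0.0259), IL1RL1 (0.0399), and IL1B and MX1 (0.0476 each). In HL60, the line left out, MMP9 and IL1B differed by 9.31 and 6.27, more than in SKM1 (6.54 and 4.69). GTSF1, GAGE12G, HDC, IL1RL1 and MX1 differed there by -0.36, 1.61, 2.59, 2.27 and 2.47. The lower gene was the carbonic anhydrase CA1, at background on both SKM1 arrays, with differences of 5.28 in MDSL and 7.09 in K562. Without MDSL or without K562 the counts were 0.

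Genes lower in SKM1 that stood farthest from the other lines included TBC1D30, a Rab regulator, at 5.33 after OR21 and 8.92 in control. Its differences were 1.03, 0.66 and -0.07 in MDSL, HL60 and K562, where all 3 controls were at background. TPD52L1 was at 7.36 and 9.89, and GPM6B, a membrane proteolipid, at 6.63 and 9.87. None passed the test (adjusted p in limma 0.772 for TBC1D30 and 1.00 for the other 2).

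GTSF1 belonged to a small set of genes at background in untreated SKM1 but at or above the gene median in the other 3 untreated lines. The set, chosen after the values were seen, held 9 genes, of which 8 were at least 2-fold higher in SKM1 after OR21, with a median of 2.25. Since the low control level chose them, these differences are a description and support nothing. CR1L, a complement receptor relative, was at 9.67 after OR21 and 5.28 in control, and the lysosomal membrane protein GLMP at 8.04 and 4.32. GLMP differed by 0.55, -0.10 and 0.27 in MDSL, HL60 and K562. C3AR1, the C3a receptor, was at 7.23 and 4.59, and the mitotic checkpoint gene CHFR at 5.64 and 4.06. MBNL2 and DNAJC12 were at background on both arrays. Chosen in the same way, 7 of 35 genes were at least 2-fold higher in MDSL, 10 of 24 in HL60 and 26 of 176 in K562.

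**Figure D5:**
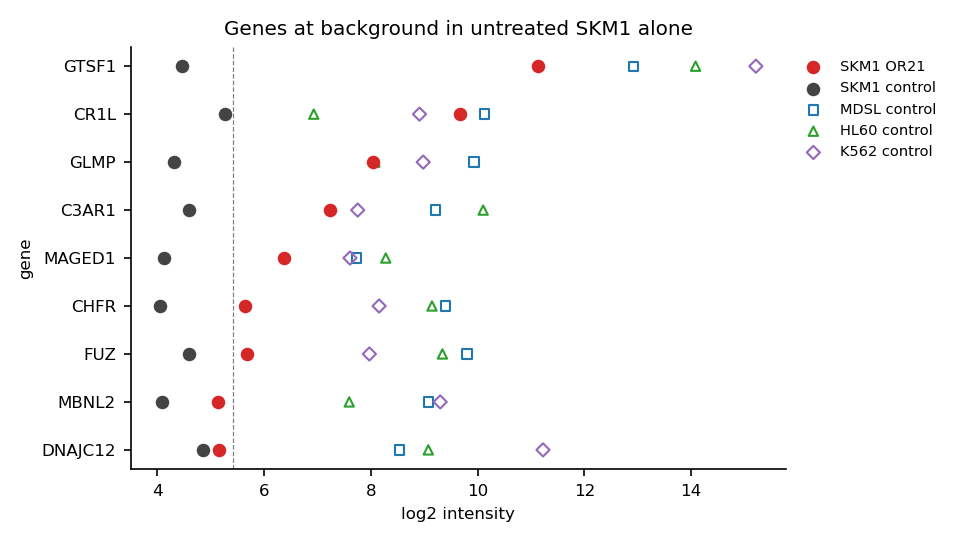
Log2 intensity of the 9 genes at background in untreated SKM1 and at or above the gene median in the other untreated lines, for SKM1 after OR21 (red), SKM1 control (dark grey) and the other controls (open symbols), with the SKM1 background median dashed. GTSF1 is at 11.13 after OR21, to the left of the open symbols at 12.91 to 15.21, and MBNL2 and DNAJC12 stay left of the dashed line.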

How the data were processed

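RNA of 10 samples was labelled with biotin and measured on single-colour arrays. The authors deposited linear intensity values per probe set (24351 rows, 4.25 to 405294.4). For software, background correction and normalization the sources used here give nothing, and the number of arrays limits the precision. Values were put on log2 with no pseudocount. The 17709 named probe sets gave 17687 genes. For 20 genes with several, the probe set with the highest mean was kept (median gap of their differences 0.28). No column lacked a sample (0).

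SKM1 differences were counted by size. limma 3.58.1 in R 4.3.3 tested SKM1 against the other lines over 8 arrays (line as block, two-sided, Benjamini-Hochberg). The lone SKM1 response is assumed to vary like the others, and p-values measure spread between lines. With simulated spread drawn from the fitted prior, this test called 1 of 100 genes shifted by 3 log2, 74 of 100 shifted by 6 and 0 of 17487 unshifted genes. With each gene's fitted spread it called 63, 99 and 14, so false calls depended on the assumed spread.

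Members and lists were chosen with earlier results of these data known. Named genes were the 20 largest differences each way with the higher value at or above the array median, the 10 brightest OR21 genes at background in control, the 8 largest negative differences among the brightest controls, up to 5 per list by size, the 6 each way farthest from the other lines, and 18 genes always named, of which 17 were measured. List members named beyond these, and the 9 genes at background in untreated SKM1 alone, were chosen after their values were seen.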

Additional observations from a re-analysis of the deposited data

Results flagged for a closer look

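TSPAN7, SERPINE2 and SCIN were lower in SKM1 after OR21 while all of the other 3 lines had a positive difference. TSPAN7, a tetraspanin, was at 6.84 after OR21 and 9.03 in control in SKM1 (-2.19), and differed by 0.68 in MDSL, 0.69 in HL60 and 2.42 in K562. It was at background on both HL60 arrays and in the K562 control, where a lower level could not have been seen. SERPINE2, a protease inhibitor, differed by -2.08 in SKM1 and by 2.83, 0.53 and 0.61 in those lines. SCIN, the actin-severing protein scinderin, differed by -2.21 in SKM1 and by 0.23, 0.77 and 4.70, with the HL60 and K562 controls at background. DEFA1, a neutrophil defensin, went the opposite way, with 1.46 in SKM1 and -0.76, -0.36 and -0.01 in the others. Its SKM1 control was at background, which makes the SKM1 difference at least 1.42, and so were both K562 arrays and the MDSL OR21 array. In limma the adjusted p of these 4 differences between SKM1 and the other lines was 1.00.

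The median of the heat shock and unfolded protein response list was 0.0071 in SKM1 and -0.02, -0.25 and -0.39 in MDSL, HL60 and K562. It turned to -0.01 under quantile normalization and -0.14 under centring, and the difference between lines was not tested.

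Of 3739 gene or transcript rows to which the annotation gave no name, 163 (4.36%) were at least 2-fold higher in SKM1 after OR21 and 128 (3.42%) lower. Both shares were below those of named genes (7.10% and 4.47%), and the median difference was -0.06.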

How the results depend on the processing

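At 4-fold in place of 2-fold, 347 genes were higher and 43 lower. Centring each array on its median gave 1001 higher and 1210 lower, against 1255 and 791 as deposited. Over quantile normalization, spike scaling, 32 added before log2, probe set means and leaving out genes under the array median, the counts were 941 to 1396 higher and 547 to 966 lower. The all-gene median was -0.05 under quantile normalization, -0.17 under centring and 0.04 under spike scaling. The test of SKM1 against the other lines gave 29 higher and 1 lower gene without HL60, and 0 with quantile normalization, centring, the level filter or a trend, and without MDSL or K562. The cause was not tested. With members at or above the median of either SKM1 array, which keeps some for being high on 1 array alone, 16 lists had a median at least 2-fold higher, against 8 over all members, because dim members were left out. Of 155 list medians under alternatives 143 moved by less than 1.5-fold, 12 by more, and 15 turned sign. Of 566 values of the 283 named genes 566 moved by less than 1.5-fold, and 5 turned sign, all of COL1A2, ERG and RBFOX3, whose differences were near 0. No paired analysis was possible because each group has 1 array and replicate numbers pair nothing within SKM1. The test across lines has the line as its block. Genes at background have only a bound, and 5708 genes after OR21 and 5758 in control were at background in SKM1.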

Other observations

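Smaller gene groups in SKM1 cells gave a mixed picture. Imprinted genes, which are expressed from 1 parental copy under DNA methylation, had 4 of 15 members higher by 2-fold or more and 0 lower. DLK1, a Notch-like regulator, was at 8.07 after OR21 and 5.24 in control, at least 6.29-fold higher, and NNAT, neuronatin, at 9.08 and 7.16. The list median of 0.02 turned to -0.12 under centring. It was 1.04 over the 8 members at or above the median of either array, but this filter keeps some, such as DLK1, for being high after OR21 alone. Of 21 genes reported as silenced in myeloid neoplasms 1 was higher and 1 lower, the adhesion molecule CADM1 at 9.66 and 8.56 and FHIT at 7.22 and 8.37, shares near those of all genes (7.10% higher and 4.47% lower). Of the 21, 10 were at background in control and 9 after OR21. The histone methyltransferase SUV39H1 was at 9.98 and 11.33, and EZH2, the catalytic subunit of polycomb complex 2, at 8.63 and 9.50. Among checkpoint ligands 1 of 16 was higher, again near the share of all genes, with VSIR at 8.83 and 6.21.

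Stress and metabolic genes differed by pathway. Of 10 oxidative stress genes 4 were higher and 0 lower, with the quinone reductase NQO1 at 11.88 after OR21 and 9.62 in control and the autophagy receptor SQSTM1 at 12.47 and 11.04. Of 21 glycolysis and hypoxia genes 1 was higher, near the 7.10% of all genes, and 6 were lower, against 4.47% of all genes. BNIP3, a mitophagy receptor, was at 11.50 and 13.04, and the glucose transporter SLC2A3 at 12.69 and 11.17. Of 19 amino acid genes 0 were higher and 5 lower, among them PSAT1, of serine synthesis, at 11.62 and 12.98 and asparagine synthetase (ASNS) at 11.04 and 12.13. The lipid droplet protein PLIN2 was at 12.98 and 11.23, opposite to the desaturase SCD.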
